A study of Mus musculus with 6 samples.

Results

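The 5 genes described here encode lymphoid transcriptional regulators, namely the Ikaros family factor Ikzf3, the Ets factor Spib, the LIM-only adaptor Lmo2, the helix-loop-helix inhibitor Id2 and the HMG box factor Tcf7. They were taken by symbol from the authors' deposited table of 251 changed probe sets, where each has 1 row, so that 5 of the 35557 probe sets on the array were members. Because they were picked as regulators that were higher in that table, their difference between the groups is given as a description and not as a finding. The cells were a mouse pro-B line transformed by Abelson murine leukaemia virus and infected with a retrovirus that encodes the zinc finger repressor Gfi1b fused to an oestrogen receptor domain that responds to tamoxifen. The untreated group held 3 arrays of these cells without tamoxifen, and the tamoxifen group held 3 arrays of the same fusion-bearing cells after 12 h in tamoxifen. All 6 arrays therefore carry v-Abl and the fusion, and cells given tamoxifen without the fusion were not analysed here. The replicates are called biological by the submitters, with no word on whether they were parallel cultures of 1 infected population, so each p-value covers only the spread among these arrays, which may be technical. In total RNA from a whole culture, a change in the share of cells that express a gene and a change in RNA per cell cannot be told apart.

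As background, B lineage commitment rests on E proteins, Ets factors and Ikaros family factors that act together at B cell genes. Ikzf3 (Aiolos) and Spib, a relative of PU.1, belong to that set and gain expression as B cell precursors mature, while Id2 binds E proteins and keeps them off DNA and is needed by natural killer and other innate lymphoid cells. Tcf7 (TCF-1) partners with beta-catenin and is a hallmark of early T cell and innate lymphoid precursors, and Lmo2 bridges Tal1, Ldb1 and GATA factors in blood stem cells and progenitors. Gfi1b and its relative Gfi1 bind DNA through zinc fingers at sites with an AATC core and recruit the demethylase LSD1 and its partner CoREST.

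Replicate 2 stood apart from the other arrays before any of these genes is considered. In a block of 6667 probe sets numbered below the table's lowest row, the median was 7.26 and 7.27 in untreated replicates 1 and 3 and 7.50 in untreated replicate 2, against 7.53, 7.31 and 7.48 in tamoxifen replicates 1, 2 and 3 (log2). Untreated replicate 2 thus lay with tamoxifen replicates 1 and 3, and tamoxifen replicate 2 with untreated replicates 1 and 3. The pattern was not confined to this block. On the first principal component of all probe sets (46% of the variance), untreated replicates 1 to 3 scored -30.6, 9.7 and -26.5. Tamoxifen replicates 1 to 3 scored 26.6, -2.7 and 23.4, so that replicate 2 was reversed in sign there as well. Each difference below is given with all arrays and again without both arrays of replicate 2.

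Among the B lineage factors, Ikzf3 (chromosome 11, band D, probe set 10390640) read 7.93, 8.16 and 8.01 in untreated replicates 1 to 3 and 8.68, 8.62 and 8.69 in tamoxifen replicates 1 to 3 (log2 expression). The groups did not overlap, and the lowest tamoxifen array lay 0.461 above the highest untreated one. The group means were 8.03 ± 0.12 and 8.66 ± 0.036 (SD, n = 3 each), a difference of 0.63 ± 0.075 (SE) or 1.548-fold. Without replicate 2 the difference was 0.72 ± 0.062 (SE).

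Spib (chromosome 7, band B4, probe set 10562812) showed the largest difference of the 5 on the log2 scale. It read 9.56, 9.71 and 9.31 untreated and 10.55, 10.30 and 10.49 with tamoxifen. The tamoxifen arrays were all above 10, the untreated ones all below, and both groups spread over more than 0.2. Means of 9.53 ± 0.20 and 10.45 ± 0.13 (SD, n = 3 each) gave a difference of 0.92 ± 0.12 (SE), or 1.889-fold, and 1.08 ± 0.10 without replicate 2.

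The promoters of Spib and Id2 are shown to describe their letters, including the AATC core named above. Whether Gfi1b acts at these promoters was not tested. The sequences are the 250 bases before the annotated start from RefSeq (GRCm38.p6), at chr7:44532072-44532321 for Spib and chr12:25096093-25096342 for Id2, both on the minus strand, with AATC on either strand in capitals (GATT where it is on the other strand).
Spib: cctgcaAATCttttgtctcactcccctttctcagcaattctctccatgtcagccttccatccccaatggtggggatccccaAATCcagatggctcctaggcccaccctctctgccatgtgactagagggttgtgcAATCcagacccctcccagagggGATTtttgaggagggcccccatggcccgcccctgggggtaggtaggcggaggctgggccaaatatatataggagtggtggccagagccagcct
Id2: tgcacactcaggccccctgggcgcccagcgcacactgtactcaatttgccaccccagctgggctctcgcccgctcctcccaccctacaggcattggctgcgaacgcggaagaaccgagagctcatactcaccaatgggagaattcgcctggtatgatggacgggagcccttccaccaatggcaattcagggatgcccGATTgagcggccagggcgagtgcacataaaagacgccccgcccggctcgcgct
The Spib window held 4 AATC cores, at 244, 169, 115 and 93 bases before the start, and 3 of them were the longer AAATC. At least 4 AATC cores occurred in 7.04% and at least 3 AAATC in 1.68% of all 32851 windows of this length. The Id2 window held 1 AATC, 53 bases before the start, as did 69.0% of windows at least once, and no AAATC. For Tcf7 the windows at hand belong to 2 starts that lie 369 and 788 bases inside the annotated gene, and they held 1 and 0 AATC. Both windows lie wholly inside the gene, so their counts do not describe the sequence before its outer end. The E-box CANNTG is the sequence bound by the E proteins that Id2 holds off. It occurred 2 times in the Spib window, a count that 31.8% of windows reach. In the Id2 window it occurred 1 time, against at least 1 in 66.2% of windows. The Ets core GGAA occurred 1 time in the Spib window and 2 times in that of Id2, counts that 93.4% and 76.8% of windows reach. The Tcf7 windows held 3 and 6 GGAA, counts that 54.7% and 8.69% of windows reach, and 1 and 0 E-boxes. Motifs were read on both strands, CANNTG being its own reverse complement. AAATC contains AATC, so that these counts overlap. A match describes the letters and not a bound site. Windows were at hand for 3 of the 5 genes, and Ikzf3 and Lmo2 are named only.

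Id2, the inhibitor of E proteins (chromosome 12, band B, probe set 10399691), was the least even of the 5 in untreated cells. It read 8.69, 9.22 and 8.72 untreated and 9.52, 9.47 and 9.54 with tamoxifen. Untreated replicate 2 lay 0.517 above the mean of the other two untreated arrays, and 0.245 below the lowest tamoxifen array. The tamoxifen arrays lay within 0.0679 of each other. The means of 8.88 ± 0.30 and 9.51 ± 0.035 (SD, n = 3 each) differed by 0.63 ± 0.15 (SE), 1.547-fold, and without replicate 2 by 0.82 ± 0.057 (SE).

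Lmo2, the LIM-only adaptor (chromosome 2, band E2, probe set 10474201), read 8.80, 9.15 and 8.98 untreated and 9.60, 9.59 and 9.49 with tamoxifen. Here too untreated replicate 2 was the highest of its group, and the gap to the lowest tamoxifen array was 0.34. The difference of the means, 8.97 ± 0.18 and 9.56 ± 0.061 (SD, n = 3 each), was 0.59 ± 0.099 (SE), 1.501-fold, and 0.66 ± 0.091 without replicate 2.

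Tcf7 (chromosome 11, band B1.3, probe set 10385776) was the most even of the 5 in untreated cells. It read 7.43, 7.48 and 7.38 untreated and 8.33, 8.23 and 8.26 with tamoxifen. Each group spread over less than 0.1, while the gap between the groups was 0.754. In untreated cells the probe set lay just below each array's median, which ranged from 7.52 to 7.61, and with tamoxifen it lay above every median. Means of 7.43 ± 0.049 and 8.27 ± 0.048 (SD, n = 3 each) gave a difference of 0.85 ± 0.059 (SE), 1.797-fold, and 0.89 ± 0.062 without replicate 2.

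**Figure D1:**
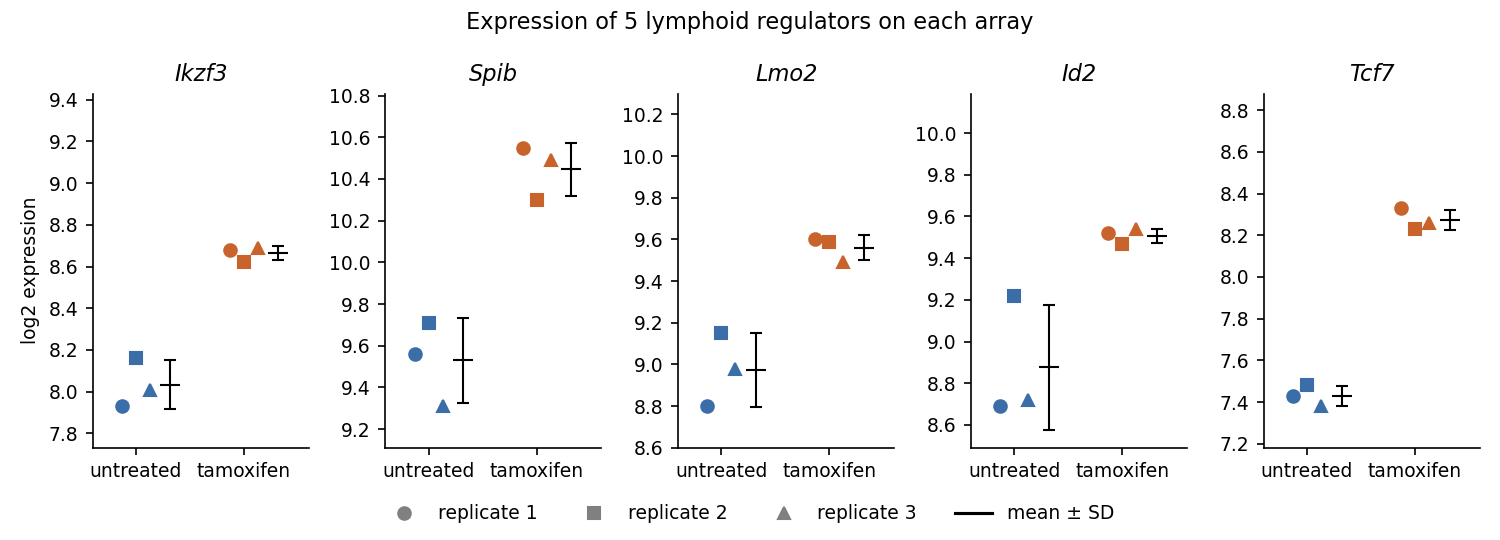
Log2 expression of each gene (y axis, the same span of 1.7 in every panel) on the untreated (blue) and tamoxifen (orange) arrays, with replicate number by symbol and the mean ± SD (n = 3) in black. No gene overlaps between the groups, and untreated replicate 2 (square) is the highest untreated point in all 5 panels, most of all for Id2 at 9.22.

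Untreated replicate 2 was the highest untreated array for 5 of the 5 genes, as it was for 41.2% of all probe sets and for 65 of the 102 rises in the authors' deposited table. Its deviation from the untreated mean was 0.345 for Id2, 0.182 for Spib, 0.176 for Lmo2, 0.129 for Ikzf3 and 0.05 for Tcf7. Tamoxifen replicate 2 was the lowest of its group for 4 of the 5 genes, all but Lmo2. It was so for 38.8% of all probe sets and for 62 of the 102 rises. The deviations there were smaller, and that of Spib, -0.142, was the farthest from 0. Leaving out replicate 2 made all 5 differences larger, by the most for Id2. The part of the array structure in these values was not tested.

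**Figure D2:**
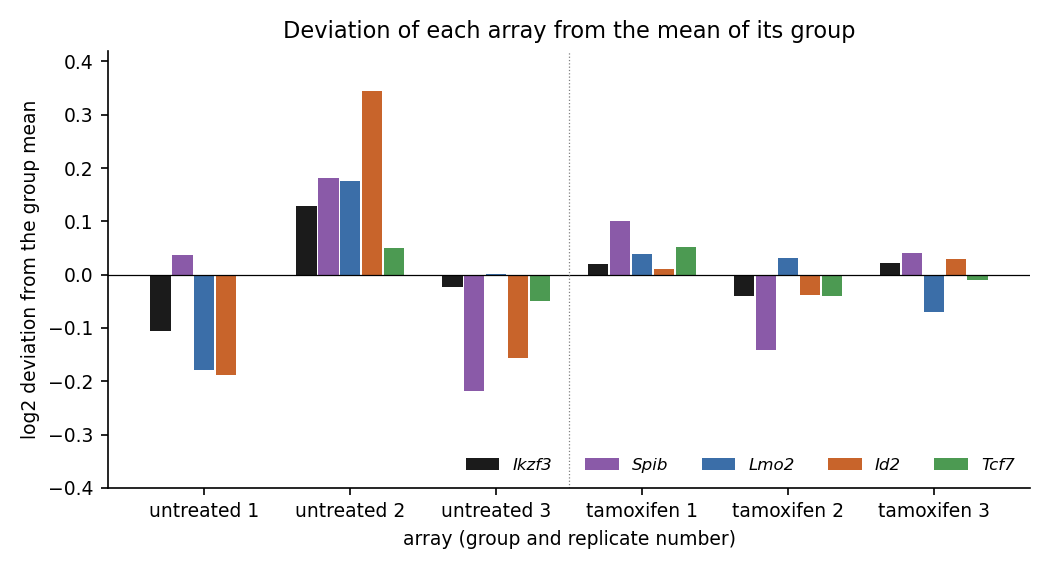
Deviation of each array from the mean of its own group (y axis, log2) for the 5 genes (colours), by array (x axis). All 5 bars point up in untreated replicate 2, from 0.05 for Tcf7 to 0.345 for Id2.

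**Figure D3:**
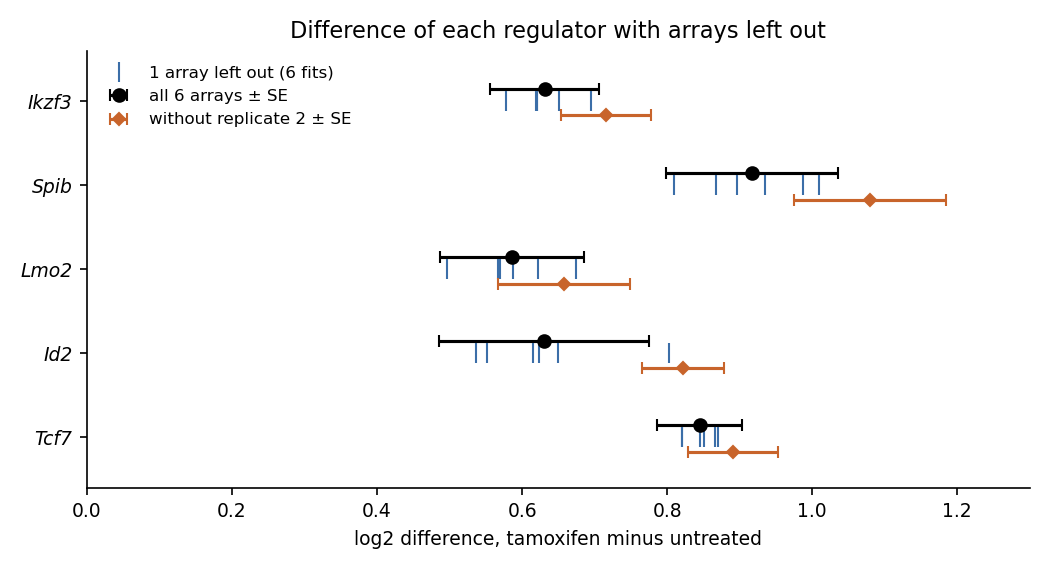
Log2 difference between tamoxifen and untreated means (x axis) for each gene with all 6 arrays (black, ± SE), with each array left out in turn (blue ticks) and without both arrays of replicate 2 (orange, ± SE). The blue ticks of Tcf7 span 0.82 to 0.87 and those of Id2 span 0.536 to 0.802, and every orange point lies to the right of its black one.

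Set among all probe sets, 3 of the 5 genes, Ikzf3, Spib and Tcf7, passed an adjusted p of 0.05 in the higher direction (limma, Benjamini-Hochberg over all 35557), where 0.433% of probe sets did so. Lmo2 and Id2 did not pass. All tamoxifen arrays lay above all untreated arrays for 5 of the 5 genes and for 10.5% of probe sets. Since the genes were chosen on this contrast, nothing is read from these counts. When single arrays were left out in turn, Tcf7 passed in all 6 fits, and the other 4 genes passed in 1, the fit without untreated replicate 2. Of all probe sets, 0.782% were called higher in that fit, and 0.0253% to 0.0675% in the other fits with 1 array left out. Without both arrays of replicate 2, 4 of the 5 passed, all but Lmo2, where 0.695% of all probe sets were called higher. With the replicate number as a block 0 of the 5 passed (limma adjusted p from 0.11 to 0.36), where 0.0169% of all probe sets were called higher.

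In the authors' deposited table the signed folds were 1.888 for Spib, 1.794 for Tcf7, 1.554 for Ikzf3, 1.553 for Id2 and 1.507 for Lmo2. The 102 rises of the authors' deposited table run from 1.503 to 4.142 with a median of 1.661. Spib and Tcf7 lay above that median, at places 23 and 33 of 102 by size, and Ikzf3, Id2 and Lmo2 below it, at places 83, 84 and 97. Lmo2 therefore sits just inside the smallest rise the table holds. By the p-value of the authors' deposited table, Tcf7 was at place 17 of 251 with 4.03e-05 and Id2 at place 237 with 0.0221. The median difference of the 5 genes was 0.63 on the log2 scale, against 0.73 for the 102 rises and -0.0092 for all probe sets.

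**Figure D4:**
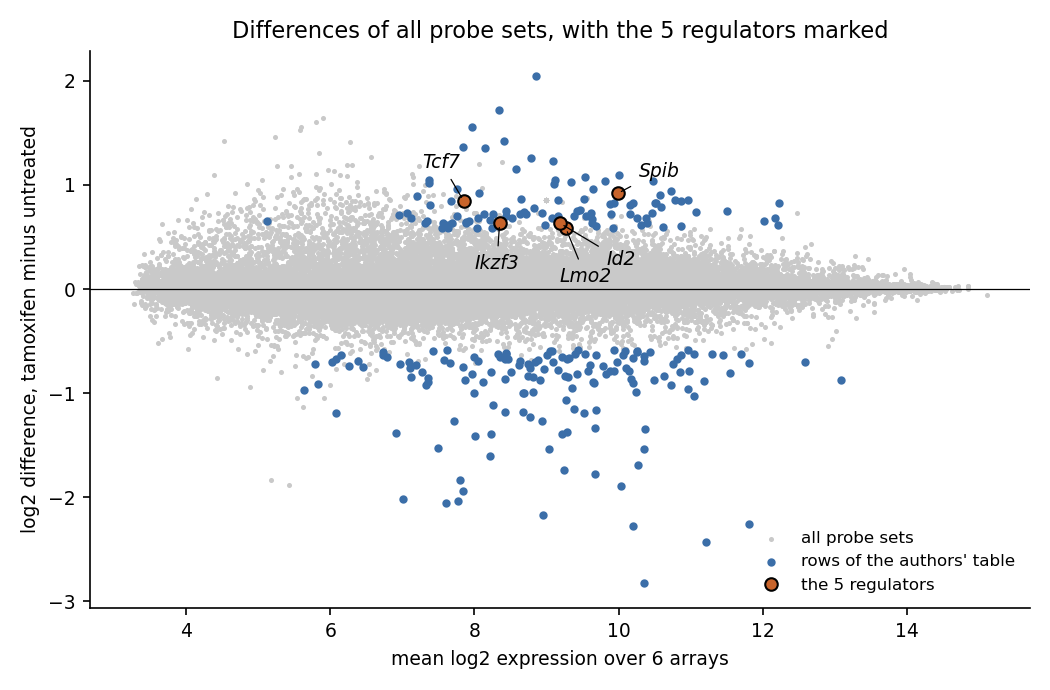
Log2 difference of tamoxifen minus untreated means (y axis) against mean log2 expression over 6 arrays (x axis) for all 35557 probe sets (grey), the 251 rows of the authors' deposited table (blue) and the 5 regulators (orange). Lmo2, Id2 and Ikzf3 lie at the lower edge of the blue rises, and Spib and Tcf7 somewhat above it.

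Likeness of pattern was measured by Pearson's r over the 6 log2 values against the 224 other named genes of the table. It is a weak guide, because any gene that is higher with tamoxifen correlates, and Tcf7 had an r over 0.9 with 88 genes and Id2 with 50. Nearest to Tcf7 was Bhlha15 (Mist1), a factor of secretory cells, at r = 0.999. Bhlha15 read 8.48, 8.52 and 8.44 untreated and 9.78, 9.69 and 9.67 with tamoxifen. Next to Tcf7 came the DNA cross-link repair gene Dclre1a and the prostaglandin synthase Ptgs1, each at 0.996. Nearest to Ikzf3 were Hepacam2 (0.997), the lipid kinase Pip5k1c and the decarboxylase Ddc (0.995 each). Nearest to Spib were Relt, a TNF receptor family member (0.996), Tifab (0.995) and the Cas family scaffold Cass4 (0.993).

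Lmo2 and Id2 had looser neighbours. Among the genes most like Lmo2 were the membrane protein Prrg4 (r = 0.982) and Ikzf3 (0.98). Id2 was most like Prrg4 (0.977), followed by A530032D15Rik (0.968) and Kdelr3, a receptor that returns proteins to the endoplasmic reticulum (0.966). Prrg4 read 7.36, 7.90 and 7.56 untreated and 8.55, 8.45 and 8.59 with tamoxifen, so that its untreated replicate 2 was also the high one. Between the 5 genes themselves r ran from 0.901, for Id2 with Tcf7, to 0.983, for Ikzf3 with Tcf7. All these r values rest on 6 arrays that share the treatment and the replicate 2 pattern.

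Ikzf3 and Lmo2 had other table genes close by on their chromosome. Protein-coding genes were counted in RefSeq order, with up to 30 in between on each side. Between Ikzf3 and Thra, a thyroid hormone receptor, lay 9 genes, and between Ikzf3 and Rapgefl1 lay 13. Thra read 7.24, 7.42 and 7.33 untreated and 7.93, 7.79 and 8.11 with tamoxifen, and Rapgefl1 7.38, 7.08 and 7.37 against 8.36, 7.93 and 8.44. For both, every tamoxifen array was above every untreated one, and neither passed (limma adjusted p = 0.0562 and 0.0576). Lmo2 had 12 genes between it and Prrg4, which rose by 0.93 ± 0.14 (SE; limma adjusted p = 0.0477). It had 17 and 18 genes between it and Rag1 and Rag2, the recombinase genes, which fell. The difference was -2.28 ± 0.089 for Rag1 and -1.83 ± 0.11 for Rag2 (log2, SE; limma adjusted p = 0.000816 and 0.00308). Lrrc4c, with 20 genes in between, had a difference of -0.73 ± 0.12 (limma adjusted p = 0.0635). Spib, Id2 and Tcf7 had no named table gene within that span. The table names 209 of the 21900 protein-coding genes.

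Few relatives and partners of the 5 genes can be named on these arrays, because only rows of the table carry a gene name here. Of 5 Ikaros family genes the table held Ikzf3 alone, of 14 Ets genes Spib alone, of 13 genes of the Lmo2 complex Lmo2 alone, and of 15 genes of the TCF and beta-catenin pathway Tcf7 alone. Of 12 E protein and HLH genes it held Id2 and Bhlha15, the latter with a rise of 1.23 ± 0.059 (log2, SE; limma adjusted p = 0.00129). Of 18 T lineage factors Tcf7 was the 1 present, of 12 natural killer and innate lymphoid factors Id2 and Tcf7, and of 8 plasmacytoid dendritic factors Spib. Of 26 early B lineage factors the table held Ikzf3, Spib and Lmo2, and of 15 Gfi1b relatives and cofactors it held 0. In the table chosen by the authors on these same arrays, such presence is not independent evidence of direction, and absence does not show that a gene kept its level.

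Regulators outside the 5 went both ways. By function 7 others that bind DNA were looked at in the table, a selection made after the values were seen. Past the threshold (limma, Benjamini-Hochberg) 3 of the 7 rose, where 0.433% of all probe sets did, and 2 fell, where 0.456% did. The table was itself chosen on this contrast, and 68 of its 251 rows passed as higher and 114 as lower. Nothing is therefore read from these counts. The 3 present of 15 mature B and plasma cell factors were all among the rises. They were Bhlha15, Prdm1 (Blimp-1), a repressor that drives plasma cell differentiation, which rose by 0.89 ± 0.098, and Xbp1, which turns on genes of protein secretion and rose by 0.61 ± 0.073 (log2, SE; limma adjusted p = 0.0196 and 0.025). Thra did not pass. Rel, an NF-kB subunit, fell by 0.70 on the log2 scale, and Arid5b fell by 0.68 (limma adjusted p = 0.0143 and 0.0494). Jun, at -0.82 ± 0.17, missed the threshold (limma adjusted p = 0.122). The 1 gene present of 14 on the interleukin 7 and STAT5 axis, the cytokine feedback inhibitor Cish, rose by 1.07 ± 0.13 (limma adjusted p = 0.0255).

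Markers of the labelled and of other cell types were limited by the same lack of names. Of 10 B lineage markers the table held 4, of which Cd79b, Blk and Rag1 averaged 11.70, 11.94 and 11.34 in untreated cells, above the upper quartile of every array, while Rag2 averaged 8.72, below each of them. Cd79b, a signalling chain of the B cell receptor, rose by 0.65 ± 0.073, and Blk, a kinase below that receptor, fell by 0.81 on the log2 scale, while the mean of the 4 went from between 10.86 and 11.03 to between 9.81 and 9.89. Beside Tcf7, the 1 T cell marker present of 8 was the kinase Zap70, which read 7.09, 6.82 and 7.07 untreated and 7.50, 7.82 and 7.55 with tamoxifen without passing (limma adjusted p = 0.0784). Of 7 myeloid markers the lysozymes Lyz1 and Lyz2 were present, and their mean lay between 7.64 and 7.74 untreated and between 8.57 and 8.74 with tamoxifen. No innate lymphoid, plasmacytoid dendritic, erythroid or stromal marker had a name here. The part of these cell types in the values of the 5 genes was not tested.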

How the data were processed

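Total RNA of 6 cultures was measured on one-colour arrays, with groups and replicate numbers read from the titles. The deposited matrix holds log2 expression values per probe set, made by the authors, with background correction, summarisation and normalization not given in the sources used here. Of tools, the submitters' processing notes name Partek, with no role or version. The authors' deposited table gives a p-value and, as a score, a signed linear fold for 251 probe sets, by a test not given in the sources used here. Its folds matched the matrix to within 0.021 on the log2 scale, which settles the base. Symbols were matched to RefSeq (GRCm38.p6), 200 by accession, 13 by symbol and 19 by synonym, with 19 unmatched.

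Differences were fitted with limma 3.58.1 in R 4.3.3 (lmFit, eBayes, no covariate) on the deposited log2 values of all 35557 probe sets, adjusted by Benjamini-Hochberg at 0.05. The procedure was tested on simulated data. These had independent noise on each array and lacked the shared pattern of replicate 2, so the test does not cover that pattern. With 3 arrays against 3, an exact permutation test could not go below 0.1, so none was run. Precision is limited by having 3 arrays in each group. Figures used matplotlib 3.10.9 in Python 3.11.15. The 5 genes and all lists were chosen with earlier results of these data known. The rule for named genes took all 5, the 3 most alike named genes for each, and up to 4 present members of each list, leaving out genes of 1 mouse chromosome. Of the genes this rule picks, 1 is left out of the text. A gene with several probe sets was represented by the one with the highest mean. Whether replicate numbers pair the arrays was not settled. Same-numbered arrays had deviations from their group means with correlations of -0.229, -0.45 and -0.0957. These correlations cannot decide it, because replicate 2 departed upward from the untreated arrays and downward from the tamoxifen arrays. Alternatives were the replicate block, filters, scalings, variance models and arrays left out.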

Additional observations from a re-analysis of the deposited data

How the results depend on the processing

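None of the 5 differences changed sign or moved by more than the spread between replicates in any of 15 alternatives, several of which leave the difference as it is by construction. They ran from 0.578 to 0.716 for Ikzf3, 0.809 to 1.08 for Spib, 0.497 to 0.674 for Lmo2, 0.536 to 0.822 for Id2 and 0.82 to 0.891 for Tcf7 (log2). The count of the 5 genes passing the limma threshold, 3 with all arrays, moved more, and except where another threshold was set the cause was not tested. The count ranged from 1 to 5 with 1 array left out. It was 5 only without untreated replicate 2, where 0.782% of all probe sets were called higher. With array weights it was 5, where 2.29% of all probe sets were called higher against 0.433% with the settings reported above. It was 4 without dim probe sets (1.01% of those tested), with an intensity trend together with robust variance (1.15%), without both arrays of replicate 2 (0.695%), without the low-numbered block (1.15%) and at an adjusted p under 0.1 (1.02%). Quantile normalization and median centring each left it at 3 (0.596% and 0.366%). With the replicate block it was 0, and 6 of all 35557 probe sets (0.0169%) were then called higher. No measure of background was used, so how far dim signal limits these values is known only from the filter on dim probe sets.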
